A study of Mus musculus with 75 samples.

Results

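The genes described here are 38 chaperone and stress-response genes, found as rows of the deposited count table by their symbols, out of 32245 genes in that table. There were 26 genes of the endoplasmic reticulum (ER) stress response. Its chaperones and folding enzymes were *Hspa5*, *Hsp90b1*, *Calr*, *Canx*, *Pdia3*, *Pdia4*, *Pdia6*, *P4hb*, *Dnajb9*, *Dnajb11*, *Dnajc3*, *Sdf2l1*, *Manf*, *Creld2*, and *Hyou1*. Its genes of ER-associated degradation were *Herpud1*, *Edem1*, and *Sel1l*, its sensors and transcription factors were *Ern1*, *Atf6*, *Xbp1*, *Atf4*, and *Ddit3*, and its targets of ATF4 and CHOP were *Trib3*, *Chac1*, and *Asns*. The other 12 genes were heat shock genes, namely *Hspa1a*, *Hspa1b*, *Hspa8*, *Hsp90aa1*, *Hsp90ab1*, *Hspb1*, *Hspb8*, *Dnajb1*, *Hsph1*, *Bag3*, and the mitochondrial chaperonin pair *Hspd1* and *Hspe1*. Both sets were described separately in every group of mice.

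RNA was sequenced from whole kidneys of adult mice 3 days after unilateral ureter obstruction (UUO), a model of chronic kidney disease, with the contralateral kidney (CL) as control. There were 75 libraries in 12 groups. In the ABTAA arm, wild-type mice received ABTAA, an antibody that binds angiopoietin-2 and activates the endothelial receptor TIE2 (7 CL and 7 UUO libraries), or human IgG Fc (8 and 8). In the *Veptp* arm, floxed *Veptp* (*Ptprb*), a phosphatase acting on TIE2, was deleted with the tamoxifen-inducible and endothelial *Cdh5*-CreERT2 (*Veptp* iECKO, 6 CL and 8 UUO), and littermates carrying *Cdh5*-CreERT2 and 1 floxed allele without induction were the controls (*Veptp* WT, 7 and 8). In the *Pdgfb* arm, the growth factor gene *Pdgfb* was deleted throughout the body with the inducible *Actb*-CreERT2 (*Pdgfb* iKO, 4 and 4), and mice without Cre were the controls (*Pdgfb* WT, 4 and 4). All mice received carprofen, both sexes were used, and the genetic lines had a mixed background. Kidneys from 2 mice with sham surgery are counted in the *Pdgfb* WT CL group per the study's methods, and the labels do not mark which. The *Veptp* WT label is carried by 8 UUO libraries, more than the animals of that group in the study's methods. The labels also do not say which CL kidney came from the mouse of which UUO kidney.

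As background, unfolded protein in the ER is sensed by 3 membrane proteins, IRE1 (encoded by *Ern1*), ATF6, and PERK. IRE1 splices the messenger RNA of XBP1, and ATF6 is cleaved to a transcription factor. Both act on ER chaperone and degradation genes through a sequence called the ER stress response element. PERK slows translation and favours that of ATF4, which induces amino acid synthesis and transport genes and the transcription factor CHOP (*Ddit3*). ATF4 is also reached from other stresses, including amino acid shortage. The heat shock response runs in the cytosol and nucleus under the factor HSF1, which binds repeated GAA units in the promoters of heat shock genes. In the kidney, both responses have been described in tubular epithelium after injury.

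Promoter sequences are shown for 6 members on which the results turn or which stand for their group, from the RefSeq table of GRCm38.p6, the assembly that mm10 names and the build given in the submitters' processing notes. Promoters of 300 bases were available for 32 of the 38 genes. Those of *Manf*, *Hyou1*, *Atf6*, *Hspa8*, *Hsp90aa1*, and *Hsp90ab1* were not. Capitals mark the motif searched for, on either strand, and positions are counted from the RefSeq start of the gene. The ATF4 element was searched as TGATGNAA, where N is any base, and is shown for *Asns*, the ER gene that rose in all 6 comparisons of UUO with CL, and *Herpud1*, the ER gene that fell most often. The ER stress response element was searched as CCAAT, 9 bases of any kind, and CCACG, and is shown for *Hspa5* and *Dnajc3*. The heat shock element was searched as GAANNTTC or TTCNNGAA, which is 2 units, and is shown for *Hspb1*, the heat shock gene that rose everywhere, and for *Hspe1*, whose units run on to 3 or more. The *Asns* and *Hspa5* stretches lie within the 5′ exon of a transcript of the same gene in the GENCODE annotation, and the *Hspe1* stretch within the first exon of *Hspd1*, which is transcribed in the opposite direction.
*Asns*, chr6:7693214-7693243, minus strand: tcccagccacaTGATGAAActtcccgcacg
*Herpud1*, chr8:94386279-94386378, plus strand: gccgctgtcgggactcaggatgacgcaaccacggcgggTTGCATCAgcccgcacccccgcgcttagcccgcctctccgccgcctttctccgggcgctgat
*Hspa5*, chr2:34772020-34772049, plus strand: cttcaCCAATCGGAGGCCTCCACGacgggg
*Dnajc3*, chr14:118937802-118937901, plus strand: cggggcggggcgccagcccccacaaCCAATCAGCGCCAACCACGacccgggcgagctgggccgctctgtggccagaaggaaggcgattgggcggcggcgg
*Hspb1*, chr5:135887779-135887878, plus strand: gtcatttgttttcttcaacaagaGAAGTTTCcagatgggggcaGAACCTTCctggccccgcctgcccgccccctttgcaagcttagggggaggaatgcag
*Hspe1*, chr1:55088054-55088083, plus strand: gtccgTTCTAGAACCTTCCGGAAggccccg

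The ER stress response element was present in the promoters of 7 members, all ER genes (*Hspa5*, *Hsp90b1*, *Calr*, *Canx*, *Pdia6*, *Dnajc3*, and *Creld2*), and in 39 of all 32851 promoters (0.119%). In *Hspa5*, which encodes the main ER chaperone BiP, it spanned positions -65 to -47, and *Hsp90b1* had it at 2 places. The ATF4 element was present in *Herpud1*, *Trib3*, *Chac1*, and *Asns* and in 3.97% of all promoters. In *Asns* it spanned positions -23 to -16. The heat shock element of 2 units was present in 9 members, 8 of them heat shock genes (*Hspa1a*, *Hspa1b*, *Hspb1*, *Hspb8*, *Hsph1*, *Bag3*, *Hspd1*, and *Hspe1*), and in 15.1% of all promoters. Its match in *Asns*, the remaining member, overlaps the ATF4 element there. Only *Hsph1*, *Hspd1*, and *Hspe1* among the members had 3 units in a row (GAANNTTCNNGAA or TTCNNGAANNTTC), compared with 0.603% of all promoters. A match of letters is a description and not a binding site.

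Counts are molecules, since reads with the same unique molecular identifier were counted once. The libraries held 172827 to 2341800 counts with a median of 757897, and levels are given as CPM, counts relative to the library total after TMM scaling, within each arm, so that levels in different arms rest on separate scalings. Names of libraries came in 2 forms, 45 plain (such as B4) and 30 split into letter and number (such as P_3), and the *Pdgfb* arm had plain names alone. What the form of a name stands for is not given in the labels. *Ptprb* RNA was 28.1 CPM (median) in *Veptp* iECKO and 41.9 CPM in *Veptp* WT UUO kidneys (log2 fold change -0.69, edgeR unadjusted p = 0.0435, adjusted p = 1.00). In CL kidneys the medians of *Ptprb* were 33.7 CPM and 61.5 CPM (log2 fold change -0.63, edgeR unadjusted p = 0.092). *Pdgfb* RNA was 33.4 to 40.6 CPM in the UUO libraries labelled *Pdgfb* iKO and 43.2 to 57.8 CPM in *Pdgfb* WT (log2 fold change -0.47, edgeR adjusted p = 0.124). In CL kidneys it went the other way, with 16.6 to 25.0 CPM in the libraries labelled *Pdgfb* iKO and 4.43 to 19.9 CPM in *Pdgfb* WT (unadjusted p = 0.0261, adjusted p = 1). The UUO groups did not overlap (unadjusted p = 0.0342), and the CL groups did. Whether the counted part of either gene lies outside the deleted exons was not tested.

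Several members are rare or share sequence. *Chac1* had 228 counts over all 75 libraries and was at 0 in 32, and *Hspa1b* had 300 and was at 0 in 16. Neither passed edgeR's filter on low counts over all libraries of any arm, though both did among split names alone in the *Veptp* arm. *Sdf2l1* (618 counts), *Trib3* (382), and *Hspa1a* (389) passed in the *Veptp* arm alone, and *Ern1* in the *Veptp* and *Pdgfb* arms. The filter left 22 of 26 ER genes and 10 of 12 heat shock genes in the ABTAA arm, 25 and 11 in the *Veptp* arm, and 23 and 10 in the *Pdgfb* arm. *Hspa1a* and *Hspa1b*, which encode nearly the same inducible HSP70 protein, had promoters identical at 296 of 300 positions, and reads can be split between them. *Hspa8*, *Hspd1*, and *Hspe1* have processed pseudogenes, and the annotated starts of *Hspd1* and *Hspe1* overlap on opposite strands while the strand setting of the counting is not given in the sources used here. Their values are uncertain to that extent.

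The first question was which chaperone and stress genes changed in the obstructed kidney. In IgG-treated mice the ER genes that rose were *Asns*, *Xbp1*, *Atf4*, and *Ddit3*, and those that fell were *Herpud1* and *Dnajc3*. The heat shock genes that rose were *Hspb1*, *Hspb8*, and *Hsp90aa1*, and the mitochondrial chaperonin genes *Hspd1* and *Hspe1* fell. The largest differences were 3.16 ± 0.41 for *Hspb1*, 2.25 ± 0.28 for *Asns*, and 1.90 ± 0.38 for *Hspb8* (log2 fold change ± SE, UUO over CL). The classical ER chaperone *Hspa5* differed by 0.08 ± 0.17 (adjusted p = 0.756) and *Hsp90b1* by 0.14 ± 0.11 (adjusted p = 0.342). Changes here and below were called by edgeR's quasi-likelihood test at a Benjamini-Hochberg adjusted p under 0.05 over all genes tested in an arm.

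Members were read against the share of all genes called. In IgG-treated mice 4 of 22 ER genes rose and 2 fell, and 3 of 10 heat shock genes rose and 2 fell, where 16% of all tested genes rose and 18.4% fell. In ABTAA-treated mice 2 ER genes rose and 2 fell, and 2 heat shock genes rose and 2 fell, where 12.7% of all genes rose and 12.5% fell. Among *Veptp* WT mice 3 of 25 ER genes rose and 1 fell, and 2 of 11 heat shock genes rose and 1 fell (10% and 8.38% of all genes). Among *Veptp* iECKO mice 2 ER genes and 1 heat shock gene rose and none fell (4.47% and 3.47% of all genes). In *Pdgfb* WT mice 4 of 23 ER genes rose and 3 fell, and 3 of 10 heat shock genes rose and 3 fell (17.9% and 19.4% of all genes). In the libraries labelled *Pdgfb* iKO 2 ER genes and 2 heat shock genes rose and none fell (3.94% and 2.4% of all genes). The share of ER genes called was thus near that of all genes in each kind of mice.

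The medians gave the same picture. The median log2 fold change over the tested ER genes was 0.10 in IgG-treated, 0.04 in ABTAA-treated, 0.07 in *Veptp* WT, -0.09 in *Veptp* iECKO, and 0.06 in *Pdgfb* WT mice, and 0.00 in the libraries labelled *Pdgfb* iKO. The median over all genes lay between -0.01 and 0.04. Over the heat shock genes the median was 0.07, 0.13, 0.00, 0.13, -0.04, and 0.09 in the same order. Over the 6 comparisons, 10 of the 25 ER genes tested at least once were called at least once, 7 of them higher and 3 lower, and no gene was called in both directions. Of the 11 heat shock genes tested, 7 were called at least once, 3 higher and 4 lower. The share of all genes called at least once over the 6 comparisons was not computed, so neither count is read against it. The 15 ER genes never called ranged from -0.58 to 0.40.

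**Figure D1:**
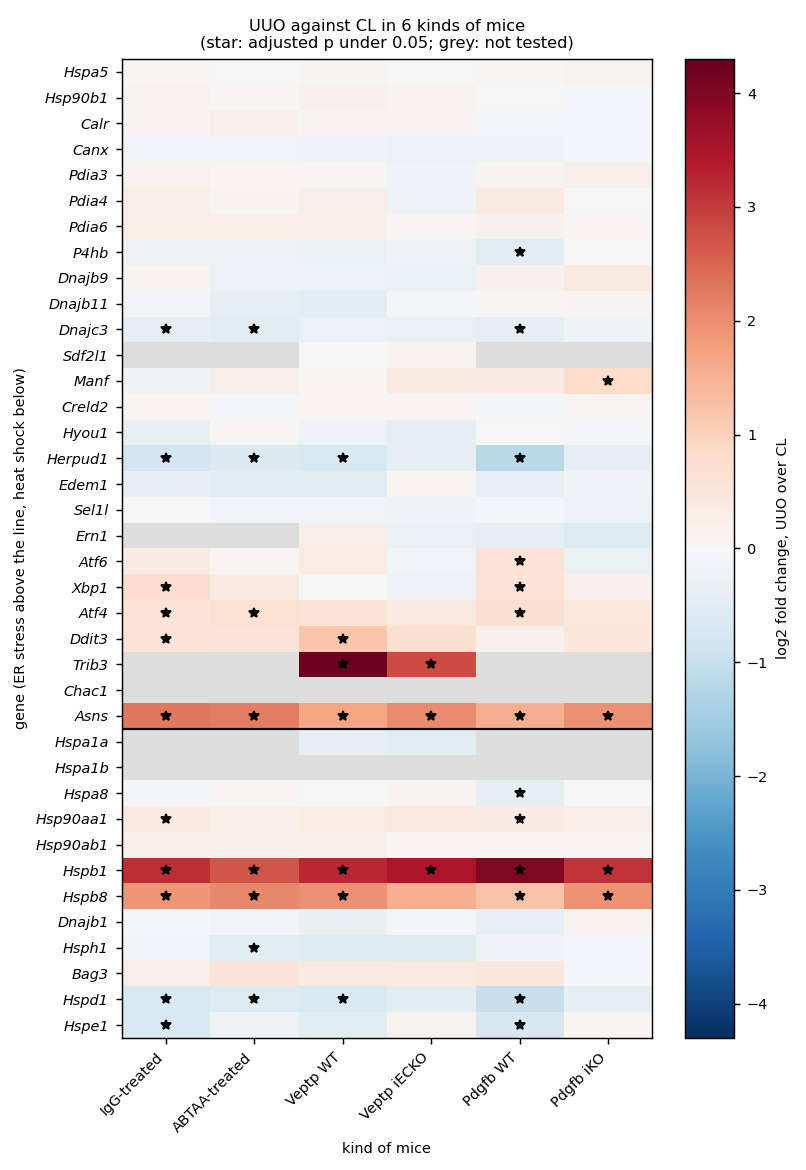
Log2 fold changes of the 38 genes (rows, ER stress genes above the line and heat shock genes below) in UUO over CL kidneys of 6 kinds of mice (columns), with a star where the edgeR adjusted p was under 0.05 and grey where the gene was not tested. *Asns* and *Hspb1* carry a star in all 6 columns, and the ER chaperones from *Hspa5* to *Pdia6* carry none.

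The ER chaperones and folding enzymes showed few calls. *Hspa5* encodes BiP, *Hsp90b1* GRP94, *Calr* and *Canx* the lectin chaperones of glycoproteins, *Pdia3*, *Pdia4*, *Pdia6*, and *P4hb* protein disulfide isomerases, and *Hyou1* an ER member of the HSP110 group. In IgG-treated mice *Hspa5* was 640 CPM (median of 8, range 366 to 833) in CL and 648 CPM (509 to 881) in UUO kidneys, so that the groups overlapped almost entirely. *Hspa5*, *Hsp90b1*, *Calr*, *Canx*, *Pdia3*, *Pdia4*, *Pdia6*, *Dnajb9*, *Dnajb11*, *Creld2*, and *Hyou1* were called in none of the 6 comparisons by edgeR, and *Sdf2l1* in neither of the 2 in which it was tested. At an unadjusted p under 0.05, *Pdia6* passed in 2 comparisons, *Pdia4* and *Dnajb11* in 1 each, and the others in 0. Other fits called some of them. *Pdia6* was called higher by DESeq2 and with a filter at a mean count of 20 in IgG-treated and ABTAA-treated mice, and in IgG-treated mice also by the exact test, with the numbers 9, 11, and 12 as a replicate block, and with the form of the library name as a covariate. In *Veptp* WT mice *Dnajb11* was called lower with this covariate, among split names alone, with the replicate block among split names, and in 1 fit over all 12 groups, and *Pdia4* was called higher with the covariate and among plain names alone. *Canx* was called lower in *Veptp* iECKO mice among split names with and without the block, and *Hyou1* with the block. *Sdf2l1* was called higher in ABTAA-treated mice with no filter on low counts and in 1 fit over all 12 groups. The filter at a mean count of 20 called *Hsp90b1* higher in IgG-treated and *Calr* in ABTAA-treated mice. Without TMM *Hspa5*, *Hsp90b1*, *Calr*, *Pdia3*, *Pdia4*, and *Pdia6* were each called higher in at least 1 comparison. *Dnajc3*, which encodes the inhibitor P58IPK of PERK and BiP's co-chaperone, fell by 0.41 in IgG-treated, 0.48 in ABTAA-treated, and 0.38 in *Pdgfb* WT mice on the log2 scale (adjusted p = 0.0187, 0.0103, and 0.0261). The call in IgG-treated mice was lost without library B4 (adjusted p = 0.0633), and that in *Pdgfb* WT mice without any 1 of 6 libraries. Both calls were also lost with the exact test, with no filter on low counts, with a filter at a mean count of 20, and without TMM. The call in IgG-treated mice was lost among split names alone too, and that in *Pdgfb* WT mice in 1 fit over all 12 groups. The call in ABTAA-treated mice was lost among plain names alone and without TMM. *P4hb* fell by 0.48 in *Pdgfb* WT mice (adjusted p = 0.00424), a call lost without TMM and in 1 fit over all 12 groups. *P4hb* was also called lower in IgG-treated mice with the covariate, in ABTAA-treated mice among split names, in *Veptp* iECKO mice among split names with and without the block, and in *Veptp* WT mice with the block. *Manf*, which encodes a secreted ER protein, rose by 0.79 ± 0.21 in the libraries labelled *Pdgfb* iKO (adjusted p = 0.0245), from 37.1, 17.5, 29.5, and 32.9 CPM in CL to 60.1, 56.0, 46.1, and 53.9 CPM in UUO kidneys. The 4 UUO libraries lay above the 4 CL libraries, and the call was lost without any 1 of 5 libraries (highest adjusted p = 0.0796).

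*Sdf2l1*, which encodes part of a BiP co-chaperone complex, was the ER gene with the widest range within UUO groups. It was low everywhere, with 0 to 11.5 CPM (median 4.26) in CL and 0 to 12.1 CPM (median 5.49) in UUO kidneys of IgG-treated mice, and 0 to 6.28 CPM (median 2.51) and 2.43 to 18.2 CPM (median 6.02) in ABTAA-treated mice. In *Veptp* WT mice it was 4.78 to 22.4 CPM (median 10.1) in CL and 3.07 to 24.3 CPM (median 11.7) in UUO kidneys, and in *Veptp* iECKO mice 0 to 24.0 CPM (median 11.4) and 0 to 20.0 CPM (median 13.9). In the *Pdgfb* arm every library lay between 1.99 and 9.07 CPM. CL and UUO libraries overlapped in all 6 kinds of mice.

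Among the genes of ER-associated degradation, which returns misfolded proteins to the cytosol for breakdown, *Herpud1* fell. *Herpud1* encodes a membrane protein of the degradation complex. In IgG-treated mice it was 218 to 315 CPM (median 283) in CL and 132 to 192 CPM (median 155) in UUO kidneys, and the groups did not overlap. In ABTAA-treated mice it was 214 to 296 CPM (median 261) in CL and 132 to 216 CPM (median 149) in UUO kidneys, and 6 of 7 UUO libraries lay below every CL library. For *Veptp* WT mice the values were 236 to 439 CPM (median 316) and 155 to 258 CPM (median 199), and in *Veptp* iECKO mice 257 to 381 CPM (median 340) and 201 to 371 CPM (median 231). Of all 39 UUO libraries, 35 lay below the lowest CL library of the same mice. The log2 fold changes were -0.83 ± 0.12 in IgG-treated mice (adjusted p = 1.36e-06), -0.63 ± 0.13 in ABTAA-treated mice (0.000247), -0.69 ± 0.16 in *Veptp* WT mice (0.00199), and -1.20 ± 0.14 in *Pdgfb* WT mice (1.53e-07). In *Veptp* iECKO mice the value was -0.42 ± 0.16 (0.123) and in the libraries labelled *Pdgfb* iKO -0.37 ± 0.14 (0.121). *Edem1*, which marks glycoproteins for degradation, and *Sel1l*, the scaffold of the HRD1 ligase, were called in none of the 6 comparisons by edgeR, DESeq2, or the exact test, and passed an unadjusted edgeR p under 0.05 in 3 and 0 of them. With the form of the library name as a covariate, edgeR called *Edem1* lower in ABTAA-treated and *Veptp* WT mice. It was also called lower among split names alone in IgG-treated and *Veptp* WT mice, and with the replicate block among split names in both groups of the *Veptp* arm. The call of *Herpud1* in *Veptp* WT mice was lost without TMM, and *Herpud1* was called lower in *Veptp* iECKO mice with the covariate, among split names with and without the block, and in 1 fit over all 12 groups.

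Of the 5 sensors and transcription factors, *Atf4* was called in 3 comparisons, *Xbp1* and *Ddit3* in 2 each, *Atf6* in 1, and *Ern1* in 0. *Ern1*, which encodes the sensor IRE1, was called in none of the 4 comparisons in which it was tested by edgeR, passed an unadjusted p under 0.05 in 0, and was called in 0 by DESeq2 and the exact test. With the replicate block among split names *Ern1* was called higher in *Veptp* WT mice (0.86, adjusted p = 0.0189) and lower in *Veptp* iECKO mice (-0.92, adjusted p = 0.0247). *Atf6* rose in *Pdgfb* WT mice by 0.61 ± 0.20 (adjusted p = 0.0183), from 32.1, 34.9, 38.4, and 35.6 CPM in CL to 57.1, 58.4, 57.1, and 39.2 CPM in UUO kidneys, and the call was lost without library C12 (adjusted p = 0.0518). In IgG-treated mice *Atf6* was called higher by the exact test, with a filter at a mean count of 20, and without TMM. *Xbp1* rose by 0.76 ± 0.17 in IgG-treated mice (adjusted p = 0.000395) and by 0.60 ± 0.15 in *Pdgfb* WT mice (adjusted p = 0.00327). In ABTAA-treated mice its value was 0.43 ± 0.17 (adjusted p = 0.063), and it was called higher there with the numbers 9, 11, and 12 as a replicate block, with the form of the name as a covariate, with a filter at a mean count of 20, without TMM, and by DESeq2. In the *Veptp* arm its values were -0.01 ± 0.39 and -0.21 ± 0.41. Counts per gene do not separate spliced from unspliced *Xbp1* messenger RNA. *Atf4* rose by 0.59 in IgG-treated, 0.65 in ABTAA-treated, and 0.67 in *Pdgfb* WT mice (adjusted p = 0.0232, 0.0209, and 0.00297), and its value was 0.59 in *Veptp* WT, 0.42 in *Veptp* iECKO mice, and 0.44 in the libraries labelled *Pdgfb* iKO (adjusted p = 0.0906, 0.393, and 0.162). The value in *Veptp* WT mice was called higher by DESeq2, with the form of the name as a covariate, with the replicate block among split names, without TMM, and in 1 fit over all 12 groups. The call of *Atf4* was lost in IgG-treated mice without P_3 or D7 and in ABTAA-treated mice without N_9 or N_12 (highest adjusted p = 0.0528 and 0.0566). *Ddit3*, which encodes CHOP, rose by 0.57 ± 0.20 in IgG-treated mice (adjusted p = 0.0249) and by 1.21 ± 0.32 in *Veptp* WT mice (adjusted p = 0.00743), and the former call was lost without P_4 or H6 (highest adjusted p = 0.0705), with no filter on low counts, within either form of name alone, and in 1 fit over all 12 groups. The latter call was lost without the 8 split libraries of numbers 3, 4, 7, and 8. In ABTAA-treated mice *Ddit3* was at 0.55 ± 0.21 (adjusted p = 0.0512), and it was called higher with the numbers 9, 11, and 12 as a replicate block, with the covariate, without TMM, and by DESeq2. It was called higher in *Veptp* iECKO mice with the covariate and among split names with and without the block, and in *Pdgfb* WT mice without TMM.

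*Asns*, which encodes asparagine synthetase, was the ER stress gene that rose in all 6 comparisons. In IgG-treated mice it was 2.48 to 10.5 CPM (median 4.37) in CL and 13.9 to 39.8 CPM (median 28.4) in UUO kidneys. In ABTAA-treated mice it was 2.43 to 10.9 CPM (median 6.71) in CL and 16.0 to 49.2 CPM (median 27.3) in UUO kidneys. The groups did not overlap in either. In *Veptp* WT mice it was 6.89 to 20.9 CPM (median 9.55) in CL and 17.5 to 59.4 CPM (median 37.4) in UUO kidneys, and in *Veptp* iECKO mice 3.84 to 14.7 CPM (median 7.67) and 7.16 to 58.2 CPM (median 38.0), with some overlap. In *Pdgfb* WT mice it was 8.87, 5.58, 5.90, and 14.7 CPM in CL and 35.8, 26.2, 26.6, and 18.6 CPM in UUO kidneys. The libraries labelled *Pdgfb* iKO had 0, 5.00, 2.27, and 8.97 CPM in CL and 10.0, 17.9, 19.7, and 19.5 CPM in UUO kidneys, and neither pair of groups overlapped. Over all mice, 36 of 39 UUO libraries lay above every CL library of the same mice. The log2 fold changes of *Asns* ran from 1.56 ± 0.34 in *Pdgfb* WT mice (adjusted p = 0.00066) to 2.25 ± 0.28 in IgG-treated mice (adjusted p = 1.01e-07).

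The other targets of ATF4 and CHOP are the pseudokinase gene *Trib3* and the glutathione-degrading *Chac1*, both with few counts. *Trib3* in *Veptp* WT mice had 3 counts in the 7 CL libraries together and 97 in the 8 UUO libraries, of which 7 lay above every CL library. Per effective depth this was a ratio of 27.3 (exact 95% interval 9.06 to 134.6, for counting error only), and the edgeR adjusted p was 5.42e-05. It had 6 counts in the 6 CL and 107 in the 8 UUO libraries of *Veptp* iECKO mice (ratio 8.77, interval 3.90 to 24.4, adjusted p = 0.0085). The counts of *Trib3* in the other mice, where it did not pass the filter on low counts, were 9 in CL and 29 in UUO kidneys with IgG, 4 and 37 with ABTAA, 8 and 53 in *Pdgfb* WT, and 3 and 26 in the libraries labelled *Pdgfb* iKO. *Chac1* had 7 and 24 counts with IgG, 9 and 19 with ABTAA, 3 and 64 in *Veptp* WT, 3 and 72 in *Veptp* iECKO, 4 and 16 in *Pdgfb* WT, and 1 and 6 in the libraries labelled *Pdgfb* iKO. The UUO sum was the higher one in every kind of mice for both genes. With no filter *Trib3* was called higher in the other 4 kinds of mice too, and *Chac1* in IgG-treated mice and both groups of the *Veptp* arm. In 1 fit over all 12 groups *Trib3* was called higher in IgG-treated and ABTAA-treated mice. Among split names alone *Chac1* was called higher in both groups of the *Veptp* arm, and with the replicate block in *Veptp* WT mice.

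**Figure D2:**
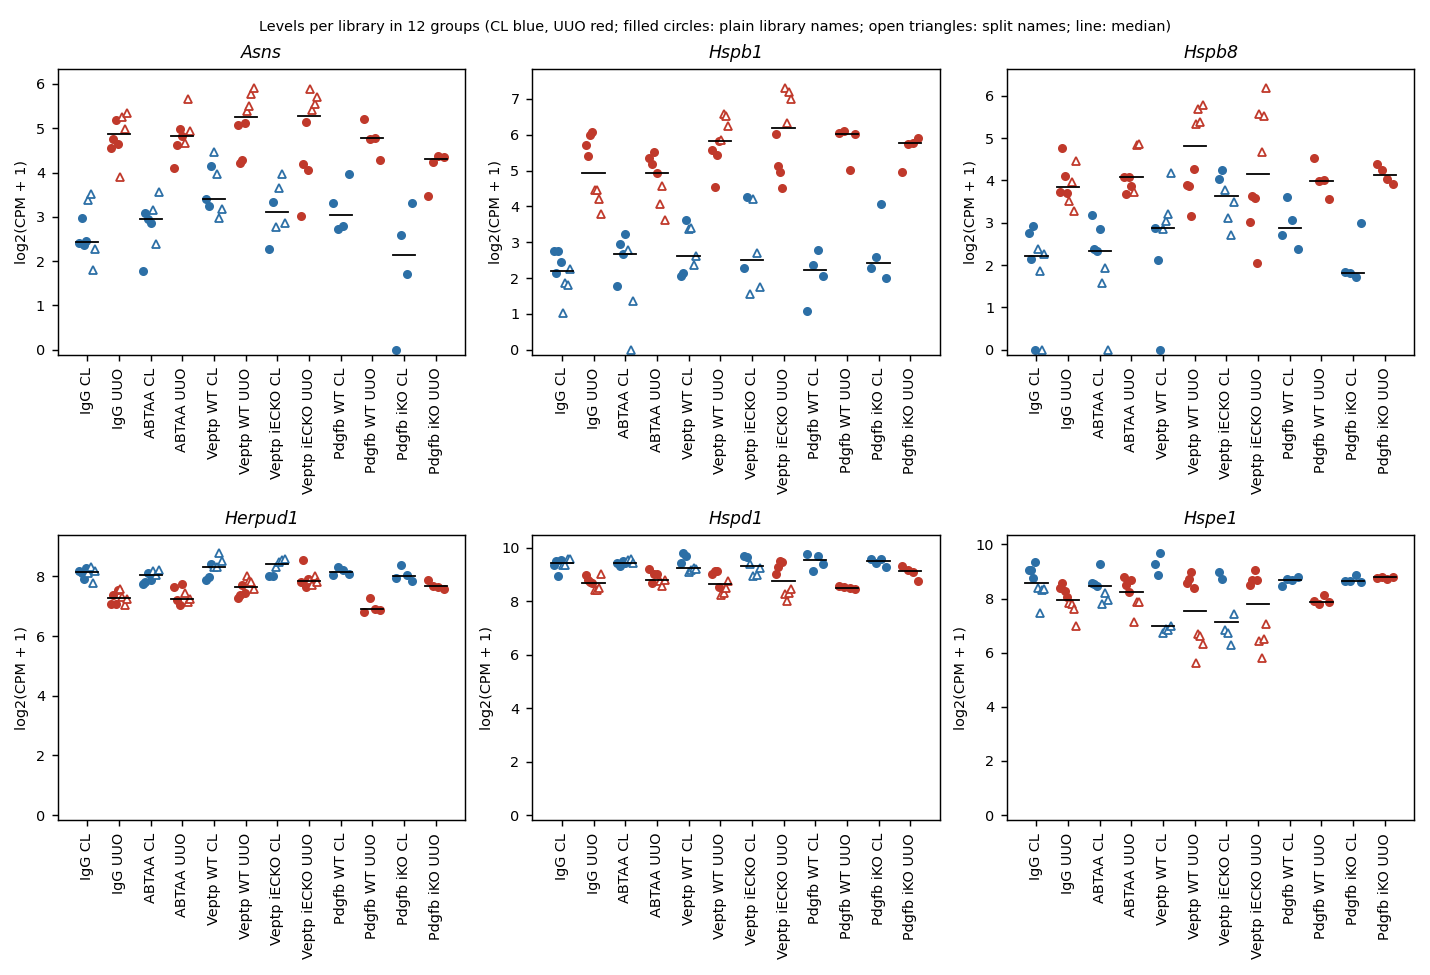
Levels of 6 members per library, as log2(CPM + 1), in the 12 groups (CL blue, UUO red, filled circles for plain library names, open triangles for split names, and a line at the median). For *Hspb1* all 39 UUO libraries lie above every CL library of the same mice, and for *Herpud1* 35 of 39 lie below.

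Among the heat shock genes, the small heat shock proteins rose. *Hspb1* encodes HSP27, which binds unfolding proteins and actin filaments. It was 1.05 to 5.76 CPM (median 3.61) in CL and 12.9 to 66.4 CPM (median 31.4) in UUO kidneys of IgG-treated mice, and 0 to 8.38 CPM (median 5.36) and 11.2 to 44.8 CPM (median 29.5) in ABTAA-treated mice. In *Veptp* WT mice it was 3.18 to 11.2 CPM (median 5.13) in CL and 22.5 to 95.1 CPM (median 56.1) in UUO kidneys, and in *Veptp* iECKO mice 1.95 to 18.1 CPM (median 4.68) and 22.1 to 158 CPM (median 71.9). The highest of these CL libraries was B8, where fibroblast markers summed to 835.5 CPM and macrophage markers to 207.7 CPM, compared with 161 to 411 CPM and 88.4 to 153 CPM in the other CL libraries of the group. The lowest UUO library was E9, where fibroblast markers summed to 394 CPM, compared with 464 to 1232 CPM in the others. *Hspb1* was also called higher without B8 and without E9, and the part of these markers in its values was not tested. In *Pdgfb* WT mice it was 1.11, 4.18, 5.90, and 3.14 CPM in CL and 64.6, 67.3, 31.3, and 63.7 CPM in UUO kidneys. In the libraries labelled *Pdgfb* iKO it was 3.84, 5.00, 15.9, and 2.99 CPM in CL and 30.0, 52.7, 53.8, and 59.4 CPM in UUO kidneys. The CL and UUO libraries of *Hspb1* did not overlap in any of the 6 kinds of mice. How many of all genes separate CL from UUO libraries was not counted, for this or any other member. The log2 fold changes of *Hspb1* ran from 2.71 ± 0.40 in ABTAA-treated mice (adjusted p = 2.96e-06) to 3.99 ± 0.39 in *Pdgfb* WT mice (adjusted p = 1.72e-08).

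*Hspb8*, the partner of BAG3 in chaperone-assisted autophagy, rose in 5 of the 6 comparisons. It was 0 to 6.59 CPM (median 3.61) in CL and 8.77 to 26.1 CPM (median 13.4) in UUO kidneys of IgG-treated mice, and 0 to 8.09 CPM (median 4.02) and 11.9 to 28.0 CPM (median 15.9) in ABTAA-treated mice, with no overlap in either. In *Veptp* WT mice it was 0 to 17.1 CPM (median 6.37) and 7.95 to 54.5 CPM (median 29.0), and in *Veptp* iECKO mice 5.52 to 18.1 CPM (median 11.5) and 3.15 to 72.2 CPM (median 18.0). In *Pdgfb* WT mice it was 5.54, 11.2, 7.38, and 4.19 CPM in CL and 22.0, 14.9, 15.1, and 10.8 CPM in UUO kidneys. In the libraries labelled *Pdgfb* iKO it was 2.56, 2.50, 2.27, and 6.98 CPM in CL and 20.0, 17.9, 15.4, and 14.1 CPM in UUO kidneys, again with no overlap. The log2 fold changes of *Hspb8* were 1.90, 2.06, 1.95, 1.21, and 1.93 where it was called, in the order IgG, ABTAA, *Veptp* WT, *Pdgfb* WT, and *Pdgfb* iKO, with adjusted p between 3.66e-05 and 0.00588. In *Veptp* iECKO mice the value was 1.56 ± 0.51 (adjusted p = 0.0565), and *Hspb8* was called higher there by DESeq2, with no filter on low counts, with the form of the name as a covariate, among split names with and without the replicate block, and in 1 fit over all 12 groups.

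The HSP70 and HSP90 families and the co-chaperones moved little. *Hsp90aa1*, the stress-inducible cytosolic HSP90, rose by 0.41 ± 0.12 in IgG-treated mice (adjusted p = 0.00529) and by 0.35 ± 0.12 in *Pdgfb* WT mice (adjusted p = 0.0299). The former call was lost with no filter on low counts, among plain names alone, and in 1 fit over all 12 groups, and the latter without any 1 of 5 libraries. *Hspa8*, the constitutive HSP70, fell in *Pdgfb* WT mice by 0.43 ± 0.15 (adjusted p = 0.0258), lost without B5, D11, or C12. Its ranges in the other mice overlapped, with medians of 1884 CPM in CL and 1644 CPM in UUO kidneys of IgG-treated, 1702 and 1744 CPM of ABTAA-treated, 1218 and 1464 CPM of *Veptp* WT, and 1272 and 1520 CPM of *Veptp* iECKO mice. Their lowest and highest values were 804 and 2970 CPM, both in the *Veptp* arm. *Hsph1*, an exchange factor for HSP70, fell by 0.48 ± 0.16 in ABTAA-treated mice (adjusted p = 0.0193), lost without O_9 (adjusted p = 0.0595), and it was called lower among split names alone, with the replicate block among them, and in 1 fit over all 12 groups in both groups of the *Veptp* arm. *Hsp90ab1*, the constitutive HSP90, *Dnajb1*, the HSP40 partner of HSP70, *Bag3*, a co-chaperone of HSP70, and *Hspa1a* were called in none of the comparisons in which they were tested by edgeR, with log2 fold changes from -0.50 to 0.56. Of these only *Bag3* passed an unadjusted p under 0.05, in 2 comparisons, and DESeq2 and the exact test called 0 of them. *Bag3* was called higher in ABTAA-treated mice with the form of the name as a covariate and in *Pdgfb* WT mice without TMM. *Hsp90ab1* was called higher in IgG-treated mice with a filter at a mean count of 20, and without TMM in both WT groups and both treatment groups. *Hspa1a* and *Hspa1b*, the inducible HSP70 genes, had 389 and 300 counts in all 75 libraries together. With no filter on low counts *Hspa1b* was called higher in *Pdgfb* WT mice (1.73, adjusted p = 0.0376), where the 4 UUO libraries (3.57 to 6.86 CPM) lay above the 4 CL libraries (0 to 3.14 CPM).

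*Hspd1* (HSP60) and *Hspe1* (HSP10) form the folding chamber of the mitochondrial matrix. *Hspd1* was 496 to 769 CPM (median 684) in CL and 342 to 511 CPM (median 414) in UUO kidneys of IgG-treated mice, and 635 to 763 CPM (median 690) and 383 to 590 CPM (median 448) in ABTAA-treated mice. Among *Veptp* WT mice it was 538 to 890 CPM (median 599) and 303 to 554 CPM (median 402), and in *Veptp* iECKO mice 494 to 826 CPM (median 638) and 259 to 733 CPM (median 435). Of the 39 UUO libraries 30 lay below every CL library of the same mice. *Hspd1* fell by 0.70 in IgG-treated, 0.58 in ABTAA-treated, 0.66 in *Veptp* WT, and 1.00 in *Pdgfb* WT mice (adjusted p = 1.1e-05, 0.000549, 0.0322, and 3.82e-06). The call in *Veptp* WT mice was lost without any 1 of 6 libraries (highest adjusted p = 0.0741). In *Veptp* iECKO mice *Hspd1* was called lower with the form of the name as a covariate, among split names with and without the replicate block, and in 1 fit over all 12 groups. *Hspe1* was 177 to 648 CPM (median 384) in CL and 126 to 378 CPM (median 246) in UUO kidneys of IgG-treated mice, and 223 to 612 CPM (median 353) and 141 to 439 CPM (median 303) in ABTAA-treated mice. It was 106 to 818 CPM (median 125) and 48.7 to 501 CPM (median 217) in *Veptp* WT mice, and 76.3 to 503 CPM (median 143) and 55.3 to 536 CPM (median 250) in *Veptp* iECKO mice, so these groups overlapped widely and their medians went the other way. The form of the library name differed between these libraries. Among plain names of *Veptp* WT mice *Hspe1* was 469 to 818 CPM in CL and 331 to 501 CPM in UUO kidneys, and among split names 106 to 125 CPM and 48.7 to 103 CPM. With the form as a covariate *Hspe1* was called lower in *Veptp* WT mice. *Hspe1* fell by 0.67 in IgG-treated mice (adjusted p = 0.0278, lost without any 1 of 6 libraries) and by 0.73 in *Pdgfb* WT mice (adjusted p = 1.77e-05).

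Libraries with split and plain names were mixed in the ABTAA and *Veptp* arms, and the counts of members called moved with this form in the *Veptp* arm. With the form as a covariate, 13 members were called in *Veptp* WT mice in place of 7, and 7 in *Veptp* iECKO mice in place of 3. Among plain names alone the counts were 4 and 0, and among split names alone 11 and 11. With split names alone and the number in the name as a replicate block, they were 14 and 15. Compared with the same split names without the block, it added *Ern1*, *P4hb*, and *Atf4* in *Veptp* WT mice, and in *Veptp* iECKO mice it added *Hspe1*, *Edem1*, *Hyou1*, *Ern1*, and *Dnajc3* and lost *Chac1*. The shares of all genes called, in *Veptp* WT and *Veptp* iECKO mice, were 33.9% and 21.5% with the covariate. They were 14% and 0% among plain names, 25.7% and 21.3% among split names, and 23.2% and 26.6% with the block. The fit as reported called 2194 and 947 of 11916 genes. Leaving out 8 libraries of numbers 3, 4, 7, and 8, which carry opposite genotypes in CL and UUO libraries of the same number, gave 4 members in *Veptp* WT mice (7.39% of all genes). Leaving out F3 gave 11 there. In *Veptp* iECKO mice, leaving out F9, E7, B8, G9, C8, G8, or E9 gave 5 members each, and leaving out D8 gave 6.

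Scaling to library totals without TMM moved the balance between higher and lower calls. The median log2 fold change over all genes then shifted to 0.21 in IgG-treated, 0.12 in ABTAA-treated, 0.13 in *Veptp* WT, 0.12 in *Veptp* iECKO, and 0.40 in *Pdgfb* WT mice, and to 0.08 in the libraries labelled *Pdgfb* iKO. In IgG-treated mice 8 ER genes then rose and 1 fell, and 4 heat shock genes rose and 1 fell. In ABTAA-treated mice these counts were 6 and 1, and 4 and 1. They were 4 and 0, and 3 and 1 in *Veptp* WT mice, and 11 and 1, and 5 and 2 in *Pdgfb* WT mice. Of 9579 genes tested, 2390 then rose and 1123 fell in IgG-treated mice, and 1559 and 825 in ABTAA-treated mice. In *Veptp* WT mice 1367 of 11916 genes rose and 550 fell, and in *Pdgfb* WT mice 4336 of 10923 rose and 1166 fell. *Herpud1*, *Hspd1*, *Asns*, and *Hspb1* kept their calls without TMM in *Pdgfb* WT mice and in both treatment groups of the ABTAA arm. The calls of *Dnajc3* in these mice, of *Hspe1* in IgG-treated mice, of *Hsph1* in ABTAA-treated mice, of *P4hb* and *Hspa8* in *Pdgfb* WT mice, and of *Herpud1* in *Veptp* WT mice were lost without it, and no call of a member between UUO and CL kidneys changed sign. Other settings also ended calls. In 1 fit over all 12 groups those of *Atf4*, *Atf6*, *Xbp1*, *Dnajc3*, *P4hb*, *Hsp90aa1*, *Hspa8*, *Hspb8*, and *Hspe1* in *Pdgfb* WT mice, of *Manf* and *Hspb8* in the libraries labelled *Pdgfb* iKO, and of *Hspe1* in IgG-treated mice were lost. Among plain names alone, which leaves fewer libraries, the calls of *Asns* in both groups of the *Veptp* arm, *Hspb1* in *Veptp* iECKO, *Herpud1* in ABTAA-treated and *Veptp* WT, and *Dnajc3*, *Hspd1*, and *Hsph1* in ABTAA-treated mice were lost. The exact test also lost *Hsph1* in ABTAA-treated mice, and a filter at a mean count of 20 lost *Hspe1* in IgG-treated, *Hspa8* in *Pdgfb* WT, and *Hspd1* in *Veptp* WT mice.

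Cell type markers moved with these differences. The summed level of 10 proximal tubule markers was 12490 to 36460 CPM (median 18640) in CL and 5521 to 10090 CPM (median 8663) in UUO kidneys of IgG-treated mice, and 9 of the 10 fell. That of the fibroblast and myofibroblast markers was 164 to 331 CPM (median 249) and 1169 to 1829 CPM (median 1629), and all 7 tested rose. That of the macrophage markers was 91.9 to 151 CPM (median 117) and 282 to 456 CPM (median 362), and all 8 rose. In whole-kidney RNA, fewer cells of a type and less RNA per cell cannot be told apart, and the part of these markers in the changes of the chaperone genes was not tested.

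The summed level of all members changed less than single genes. Over the 26 ER genes it was 4105 to 5114 CPM (median 4633) in CL and 4087 to 5549 CPM (median 4687) in UUO kidneys of IgG-treated mice. Over the 12 heat shock genes it was 3587 to 5365 CPM (median 4777) and 4083 to 4795 CPM (median 4468). The ER sum had group medians between 4043 CPM in *Pdgfb* WT UUO kidneys and 5295 CPM in *Veptp* WT CL kidneys. The heat shock sum differed by the form of the name in the *Veptp* arm, with 4985 to 5695 CPM in plain and 2472 to 3091 CPM in split libraries of *Veptp* iECKO UUO kidneys.

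**Figure D3:**
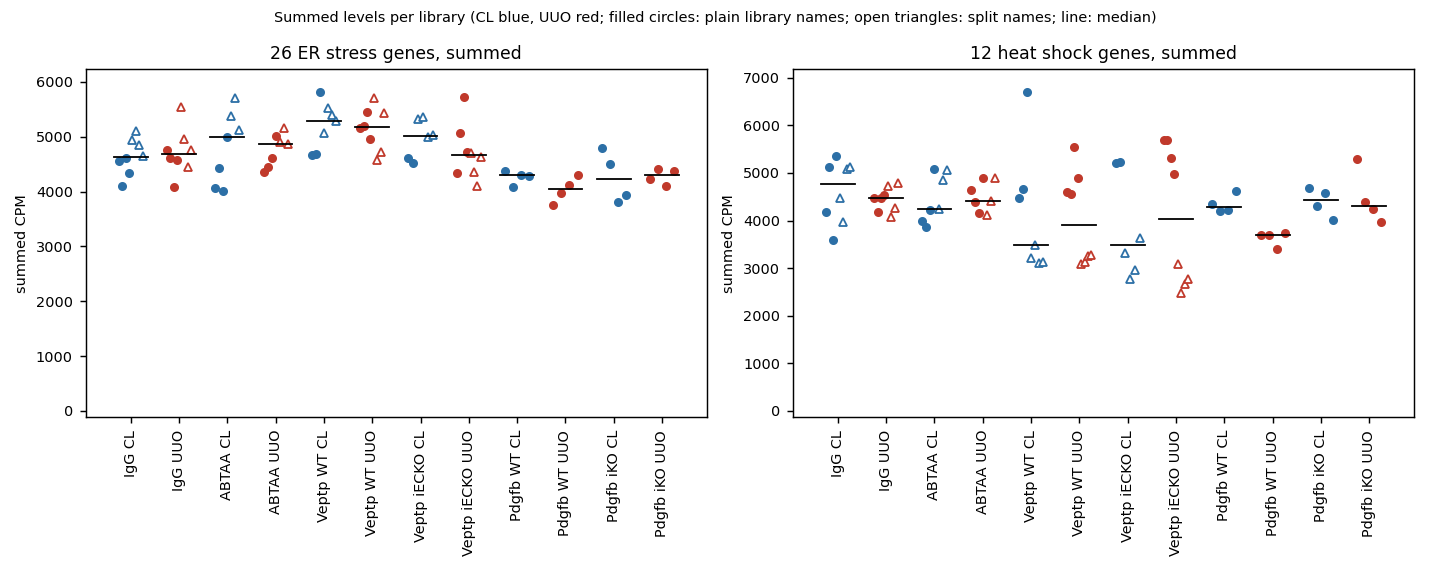
Summed CPM of the 26 ER stress genes (left) and the 12 heat shock genes (right) per library in the 12 groups (CL blue, UUO red, filled circles for plain names, open triangles for split names, and a line at the median). In the *Veptp* arm the split libraries lie below the plain ones for the heat shock genes, for example 2472 to 3091 CPM against 4985 to 5695 CPM in *Veptp* iECKO UUO kidneys.

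Related pathway genes outside the members were counted from lists set beside them. Of 22 tested genes of the PERK and ATF4 branch, 10 rose and 3 fell in UUO kidneys of IgG-treated mice, where 16% of all genes rose and 18.4% fell, with *Mthfd2*, a mitochondrial folate enzyme, at 2.20 (adjusted p = 7.69e-08) and *Cth*, which makes cysteine, at -1.23 (1.24e-07). The counts for this branch were 8 higher and 2 lower with ABTAA, 8 and 3 in *Veptp* WT, 6 and 2 in *Veptp* iECKO, 11 and 4 in *Pdgfb* WT, and 4 and 0 in the libraries labelled *Pdgfb* iKO. The shares of all genes higher and lower were 12.7% and 12.5%, 10% and 8.38%, 4.47% and 3.47%, 17.9% and 19.4%, and 3.94% and 2.4% in the same order. Of 12 genes of mitochondrial protein quality control, 8 fell and none rose in IgG-treated mice, where 18.4% of all genes fell, with the mitochondrial HSP90 gene *Trap1* at -0.93 (3.24e-06) and the protease gene *Htra2* at 0.03 (0.930). The counts lower were 4 with ABTAA, 4 in *Veptp* WT, and 8 in *Pdgfb* WT mice (12.5%, 8.38%, and 19.4% of all genes), and 0 in *Veptp* iECKO mice and the libraries labelled *Pdgfb* iKO.

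The remaining lists held calls in both directions or few calls in IgG-treated mice, where 16% of all genes rose and 18.4% fell. Of 32 other HSF1-linked chaperones 4 rose and 5 fell, with the co-chaperone gene *Bag2* at 0.89 (adjusted p = 0.000164) and the mitochondrial HSP70 gene *Hspa9* at -0.43 (0.000461). Of 23 other ER folding enzymes 2 rose and 4 fell, with the collagen chaperone gene *Serpinh1* at 1.26 (2.7e-05) and *Serp1*, a protein of the translocation site, at -0.45 (0.00611). Of 18 other genes of ER-associated degradation 1 rose and 2 fell, with the ubiquitin-conjugating enzyme gene *Ube2j1* at 0.52 (0.0254). Of 10 other sensors and regulators of the unfolded protein response 2 rose and 2 fell, with *Traf2*, an adaptor of IRE1, at 0.81 (0.00267) and *Tmbim6*, an ER membrane protein, at -0.50 (0.0109). Of 28 genes of ER translocation and glycosylation 1 fell, the translocation gene *Sec62* at -0.51 (0.0147), while *Sec63* was at 0.30 (0.0950). Of 14 genes of the cytosolic chaperonin TRiC and of prefoldin 2 rose, among them *Cct3* at 0.36 (0.0251), while *Pfdn2* was at -0.34 (0.420).

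The second question was whether treatment or deletion changed these genes. Between ABTAA-treated and IgG-treated UUO kidneys edgeR called 0 members and 0% of all genes, with 0 members and 344 genes at an unadjusted p under 0.05, and DESeq2 and the exact test also called 0. The tested members ranged from -0.69 to 0.39, with SEs of 0.10 to 0.35. Between CL kidneys the count was again 0 members and 0% of all genes, with 1 member (*Hsph1*, unadjusted edgeR p = 0.0178) and 311 genes at an unadjusted p under 0.05, and 0 by DESeq2 and the exact test. The difference of the UUO responses between ABTAA and IgG gave 0 members and 0% of all genes by edgeR, 0 members and 323 genes at an unadjusted p under 0.05, and 0 members by DESeq2. Its tested ER genes ranged from -0.39 to 0.40 and its heat shock genes from -0.45 to 0.45.

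Between *Veptp* iECKO and *Veptp* WT UUO kidneys edgeR called 0 members and 0% of all genes, with 1 member (*Hspa5*, unadjusted p = 0.0322) and 424 genes at an unadjusted p under 0.05. DESeq2 called 1 gene and the exact test 4 genes, none of them members. *Hspa5* was 387 to 845 CPM (median 464) in *Veptp* iECKO and 474 to 753 CPM (median 690) in *Veptp* WT UUO kidneys, and the groups overlapped. Between CL kidneys edgeR called 0 members and 0% of all genes, with 0 members and 229 genes at an unadjusted p under 0.05 and 0 by DESeq2 and the exact test. The difference of the UUO responses gave 0 members and 0% of all genes, 0 members and 324 genes at an unadjusted p under 0.05, and 0 members by DESeq2. The SEs of the members in UUO kidneys were 0.12 to 0.56, and in CL kidneys 0.13 to 1.02.

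In the *Pdgfb* arm 5 members differed between UUO kidneys, all higher in the libraries labelled *Pdgfb* iKO. They were the ER genes *Herpud1* and *P4hb*, the constitutive HSP70 gene *Hspa8*, and the mitochondrial chaperonin pair *Hspe1* and *Hspd1*. This was 2 of 23 ER genes and 3 of 10 heat shock genes, where 12% of all genes were higher and 6.58% lower. All 5 had been called lower in UUO than CL kidneys of *Pdgfb* WT mice, *P4hb* and *Hspa8* not without TMM, in a comparison that shares the *Pdgfb* WT UUO libraries with this one. Without TMM the balance turned. Then 1 ER gene was higher and 6 were lower (*Atf6*, *Asns*, *Pdia4*, *Xbp1*, *Pdia6*, and *Sel1l*), 1 heat shock gene was higher and 1 lower, and the median over all genes was -0.28. Of 10923 genes tested, 667 were higher and 2378 lower in this setting. *Herpud1* and *Hspe1* stayed called higher without TMM, and *P4hb*, *Hspa8*, and *Hspd1* did not. In 1 fit over all 12 groups *Herpud1* alone of the 5 was called, and a filter at a mean count of 20 lost *Hspa8*.

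*Hspe1* gave the clearest separation. It was 355, 416, 407, and 443 CPM in CL and 239, 223, 280, and 232 CPM in UUO kidneys of *Pdgfb* WT mice. The libraries labelled *Pdgfb* iKO had 404, 398, 465, and 389 CPM in CL and 437, 448, 425, and 439 CPM in UUO kidneys. All 4 *Pdgfb* WT UUO libraries lay below the other 12 libraries of the arm. The difference between UUO kidneys was 0.84 ± 0.12 (log2, adjusted p = 1.65e-05).

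*Herpud1* was 264, 319, 298, and 267 CPM in CL and 110, 154, 120, and 116 CPM in UUO kidneys of *Pdgfb* WT mice. The libraries labelled *Pdgfb* iKO had 248, 330, 263, and 228 CPM in CL and 234, 205, 198, and 191 CPM in UUO kidneys. The *Pdgfb* WT UUO libraries were again the lowest of the arm. The difference between UUO kidneys was 0.71 ± 0.14 (adjusted p = 0.000613).

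*Hspd1* was 878, 559, 830, and 664 CPM in CL and 381, 369, 358, and 353 CPM in UUO kidneys of *Pdgfb* WT mice. The libraries labelled *Pdgfb* iKO had 761, 680, 771, and 626 CPM in CL and 631, 571, 541, and 434 CPM in UUO kidneys. The 4 values of the UUO libraries did not overlap between genotypes, and the difference was 0.57 ± 0.14 (adjusted p = 0.00677).

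*P4hb* was 578, 587, 549, and 553 CPM in CL and 380, 349, 432, and 467 CPM in UUO kidneys of *Pdgfb* WT mice. In the libraries labelled *Pdgfb* iKO it was 669, 583, 470, and 485 CPM in CL and 547, 564, 546, and 544 CPM in UUO kidneys. The UUO libraries did not overlap between genotypes. The difference was 0.44 ± 0.13 (adjusted p = 0.0176), and the call was lost without B11 or D11 (highest adjusted p = 0.0769).

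*Hspa8* was 1497, 1617, 1460, and 1766 CPM in CL and 1182, 1142, 1131, and 1263 CPM in UUO kidneys of *Pdgfb* WT mice. In the libraries labelled *Pdgfb* iKO it was 1754, 1598, 1669, and 1412 CPM in CL and 2175, 1513, 1413, and 1278 CPM in UUO kidneys. The highest value was that of F10, the library of lowest depth in the arm (337545 counts). The difference was 0.43 ± 0.15 (adjusted p = 0.0453), and the call was lost without any 1 of 10 of the 16 libraries (highest adjusted p = 0.213). The number of members called in this comparison was 3 without D11.

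**Figure D4:**
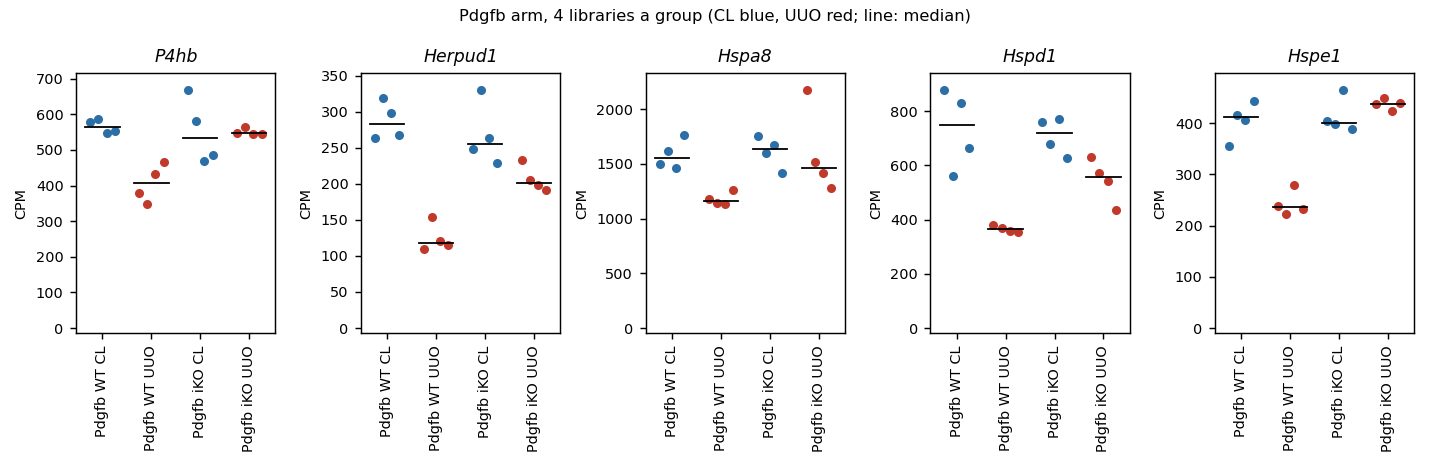
CPM of the 5 members called between UUO kidneys of the *Pdgfb* arm, for each library of the 4 groups (CL blue, UUO red, 4 libraries a group, and a line at the median). For *Hspe1* the 4 *Pdgfb* WT UUO libraries lie at 223 to 280 CPM, below the 12 other libraries of the arm.

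The difference of the UUO responses was called for 2 members, both with a positive difference (libraries labelled *Pdgfb* iKO minus *Pdgfb* WT), where 8.56% of all genes were called in either direction. It was 0.83 ± 0.19 for *Herpud1* (log2, adjusted p = 0.00764), whose response was -1.20 in *Pdgfb* WT mice and -0.37 in the libraries labelled *Pdgfb* iKO. It was 0.81 ± 0.17 for *Hspe1* (adjusted p = 0.00266), whose responses were -0.73 and 0.08. *Hspd1* was at 0.61 ± 0.20 (adjusted p = 0.0599) and *Atf6* at -0.88 ± 0.29 (adjusted p = 0.0633). DESeq2 called *Hspd1* and the filter at a mean count of 20 called *Atf6*, in the same directions. The calls of *Herpud1* and *Hspe1* held in all 16 fits that left out 1 library (highest adjusted p = 0.0250 and 0.00893), and both were lost in 1 fit over all 12 groups. The call of *Herpud1* was also lost without TMM, where the all-gene median of this difference was -0.28 and *Atf6* was called lower, and the count was 4 without F12. Between CL kidneys edgeR called 0 members and 0% of all genes, with 1 member (*Atf6*, unadjusted p = 0.0281) and 378 genes at an unadjusted p under 0.05, and 0 by DESeq2 and the exact test.

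The members with the largest responses to obstruction did not pass the test between the genotypes of the *Pdgfb* arm. In UUO kidneys *Hspb1* differed by -0.11 ± 0.25 (adjusted p = 0.809), *Hspb8* by 0.02 ± 0.28 (adjusted p = 0.978), and *Asns* by -0.58 ± 0.29 (adjusted p = 0.179). Without TMM *Asns* was called lower in the libraries labelled *Pdgfb* iKO (-0.84, adjusted p = 0.0379). Cell type markers differed between the same libraries. The proximal tubule markers summed to 3446 to 4770 CPM in *Pdgfb* WT UUO libraries and 8345 to 22920 CPM in those labelled *Pdgfb* iKO, with 9 of 10 called higher. The fibroblast markers summed to 1180 to 1615 CPM and 417 to 994 CPM, with 6 of 7 called lower, and the macrophage markers to 301 to 471 CPM and 189 to 242 CPM, with 5 of 8 called lower. Their part in the differences of *Herpud1*, *P4hb*, *Hspa8*, *Hspd1*, and *Hspe1* was not tested.

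The form of the library name was compared last, because it split the libraries of the ABTAA and *Veptp* arms inside each group. In the ABTAA arm 6 ER genes were higher and 6 lower in split libraries, and 1 heat shock gene was higher and 3 lower, where 20.6% of all genes were higher and 19.8% lower. In the *Veptp* arm 11 ER genes were higher and 8 lower, and 4 heat shock genes were higher and 5 lower, where 34% of all genes were higher and 28.4% lower. Without TMM these counts were 9 and 4, and 2 and 3 in the ABTAA arm, and 18 and 2, and 6 and 3 in the *Veptp* arm, with all-gene medians of 0.14 and 0.54. Then 2830 of 9579 genes were higher and 1329 lower in the ABTAA arm, and 6853 of 11916 were higher and 1664 lower in the *Veptp* arm. *Atf6*, *Hspa5*, *Edem1*, *Calr*, and *Pdia6*, lower in split libraries of the *Veptp* arm, changed sign without TMM. Markers moved with the form as well. Those of plasma and B cells summed to 150 to 834 CPM in plain and 9.74 to 30.2 CPM in split CL libraries of the *Veptp* arm, and to 236 to 770 CPM and 36.9 to 90.1 CPM in UUO libraries, with 2 of 3 tested lower and 1 higher. Immediate-early genes summed to 219 to 330 CPM and 130 to 237 CPM in CL and to 163 to 458 CPM and 405 to 607 CPM in UUO libraries, with 4 of 8 tested higher and 3 lower. Proximal tubule markers summed to 17310 to 35320 CPM in plain and 9362 to 15090 CPM in split CL libraries of the *Veptp* arm. In UUO libraries they summed to 6957 to 28440 CPM and 4094 to 7853 CPM. The ranges of the fibroblast, macrophage, and endothelium sums overlapped between forms in both kidneys of that arm. The part of these markers in the differences of the members was not tested.

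For 5 members of the *Veptp* arm the ranges over plain and over split libraries of *Veptp* WT CL kidneys are given. Others in the arm with a log2 fold change above 1 were *Trib3* (1.65), *Hspb8* (1.62), *Pdia4* (1.37), and *Hspb1* (1.24). *Hspe1* was 469 to 818 CPM in the plain and 106 to 125 CPM in the split CL libraries of *Veptp* WT mice, and its log2 fold change over the arm was -2.27 ± 0.13 (adjusted p = 2.04e-17). *Hyou1* was 20.2 to 39.2 CPM and 79.8 to 152 CPM in the same libraries (2.01 ± 0.15, adjusted p = 5.71e-14). *Dnajb9*, a BiP co-chaperone, was 18.6 to 28.0 CPM and 59.2 to 77.2 CPM (1.83 ± 0.14, adjusted p = 2.09e-13), and *Xbp1* was 70.8 to 107 CPM and 228 to 304 CPM (1.53 ± 0.12, adjusted p = 2.59e-13). *Hsp90aa1* went down, from 436 to 628 CPM to 238 to 330 CPM (-1.12 ± 0.09, adjusted p = 7.88e-13). Plain and split libraries of *Veptp* WT CL kidneys did not overlap for any of these 5 genes. How many of all genes separate in this way was not counted. In the fit over the arm 34% of all genes were called higher and 28.4% lower in split libraries.

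The difference between forms was not the same in both arms. In a fit over both arms, chosen after seeing the data, 25 of 35 tested members differed in it (16 ER and 9 heat shock genes), as did 49.5% of all genes. Of the 10 members called in each arm by its own fit, 5 had opposite signs (*Hspb1*, *Dnajb9*, *Hspa8*, *Hspa5*, and *Calr*). Without TMM *Hspa5* and *Calr* were positive in both arms, and both lost the call in the *Veptp* arm with no filter and without the 8 libraries of numbers 3, 4, 7, and 8. *Hspb1* was lower in split libraries of the ABTAA arm (-1.35 ± 0.19, adjusted p = 1.65e-07) and higher in those of the *Veptp* arm (1.24 ± 0.26, adjusted p = 7.84e-05), and *Dnajb9* likewise (-0.70 and 1.83). *Hspa8* was higher in the ABTAA arm and lower in the *Veptp* arm (0.28 and -0.90). The UUO response itself differed between forms in 0 members and 0% of all genes in the ABTAA arm by edgeR, with 3 members and 894 genes at an unadjusted p under 0.05. DESeq2 called 0 members there and 83 of the 2522 genes to which it gave an adjusted p (3.29%). In the *Veptp* arm the response differed in 0 members and 0.369% of all genes by edgeR, with 7 members and 1119 genes at an unadjusted p under 0.05. DESeq2 called 0 members and 0.739% of all genes in that arm.

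**Figure D5:**
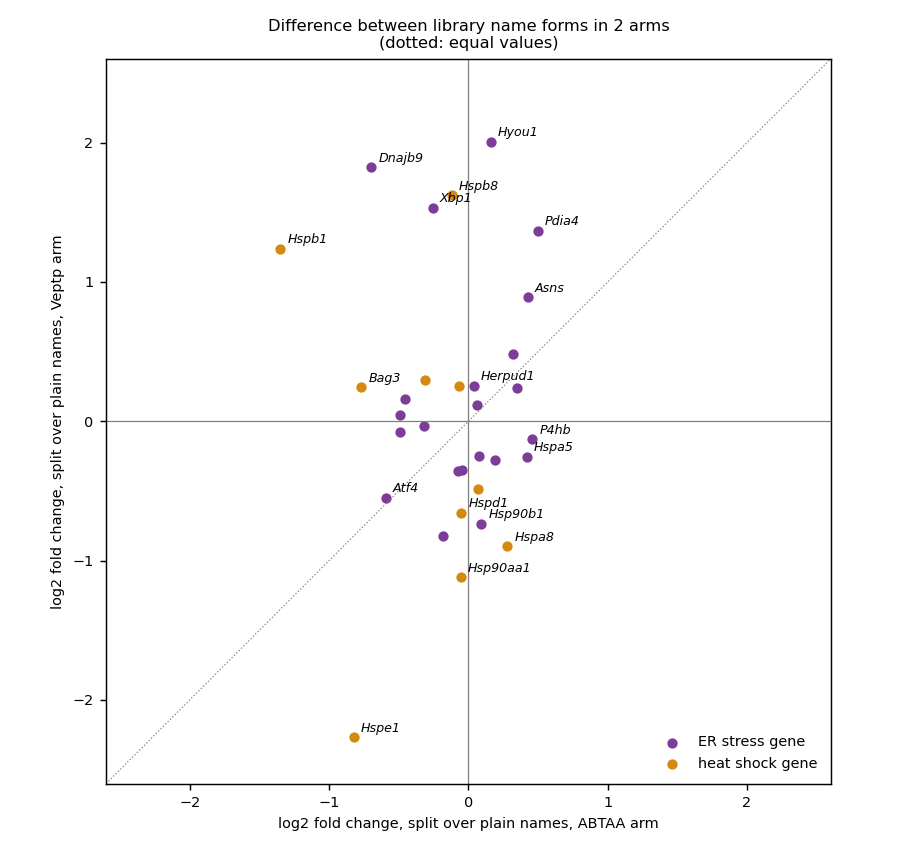
Log2 fold change of split over plain library names in the ABTAA arm (horizontal axis) and in the *Veptp* arm (vertical axis) for the members tested in both, with ER stress genes in purple, heat shock genes in orange, and a dotted line at equal values. *Hspe1* lies lowest at -0.82 and -2.27, and *Hspb1* lies at -1.35 and 1.24, on opposite sides of 0.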

How the data were processed

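RNA of whole kidneys was extracted with RNeasy kits and sequenced as Smart-seq3 libraries with unique molecular identifiers, from 4 wells per sample per the study's methods. The authors deposited 1 table of raw counts of 32245 genes, 4299 of them with no count, in 75 libraries. The submitters' processing notes name STAR 2.7.3a, UMI-tools 1.1.4, featureCounts from Subread 1.4.6-p5, and the build mm10. Neither the annotation nor the strand setting is stated in the sources read. Totals differed 13.5-fold between the deepest and the shallowest library, so low genes are measured less precisely in shallow libraries.

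Groups came from the labels, and all 75 columns were matched to samples by name. Each arm was fitted over its 4 groups with edgeR 4.0.16 (limma 3.58.1, R 4.3.3): filterByExpr by group, TMM, and the quasi-likelihood test, with Benjamini-Hochberg adjustment and a threshold of 0.05. The study's own exact test, DESeq2 1.42.0, no TMM, no filter on low counts, a filter at a mean count of 20, a covariate for the form of the library name, fits within each form, 1 fit over all 12 groups, and each library left out in turn were alternatives. The fit of the difference between name forms across arms was chosen after seeing the data. The fits were tested on simulated data with changes only in genes of mean count 20 or more. The simulated data held no effect of the name form and no pairs of libraries. CPM were counts divided by library total times TMM factor. For *Trib3*, the interval of a ratio of summed counts was the exact Clopper-Pearson one (scipy 1.17.1). Python 3.11.15, numpy 2.4.6, pandas 2.3.3, and matplotlib 3.10.9 were used for levels and plots.

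Members and lists were chosen with earlier results of these data known. All members are named by role, each called member with its log2 fold change or, for *Trib3*, a ratio of counts, and per-library values are given for members called in at least 4 of the 6 UUO comparisons, in any comparison of treated with control mice or of responses, or with the widest range within UUO groups in their set. From each related list the genes of lowest adjusted p in either direction in IgG-treated mice are named. For 1 list, the gene in 1 direction is not reported here. Labels do not say that libraries of a group are separate mice beyond their names, so p-values measure the spread between these libraries.

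Numbers shared by CL and UUO library names were checked for pairing. In the ABTAA arm, numbers 9, 11, and 12 gave correlations of deviations from the group means of 0.31 to 0.52 in same-numbered libraries against a mean of 0.19 in others, and they were taken as pairs from these data. In the *Veptp* arm they were 0.40 to 0.64 (mean 0.53) against 0.41, with the best match in 6 of 8. After the form of the name was removed they were 0.06 to 0.43 (mean 0.23) against -0.03, with the best match in 4 of 8 and the highest value for number 3. Numbers 3, 4, 7, and 8 carried opposite genotypes in their CL and UUO libraries, which 1 mouse cannot have, so the numbers were not taken as pairs and the blocked counts are given beside the result.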

Additional observations from a re-analysis of the deposited data

Results flagged for a closer look

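Of 108 groups of 4 to 10 libraries examined for a member with per-library values, 10 held a library far from the others, where chance gives about 5.4 (1 in 20). *P4hb* was 891 CPM in F9 of *Veptp* WT CL (next 666 CPM) and 564 CPM in E11 of the UUO libraries labelled *Pdgfb* iKO (next 547 CPM). *Hspa8* was 2970 CPM in F9 (next 1679 CPM). *Sdf2l1* was 11.5 CPM in B6 of IgG CL (next 4.96 CPM), and *Hspd1* was 496 CPM in the same library (next 647 CPM). *Herpud1* was 371 CPM in D8 of *Veptp* iECKO UUO (next 256 CPM). *Hspb1* was 15.9 CPM in E10 of the CL libraries labelled *Pdgfb* iKO (next 5.00 CPM) and 31.3 CPM in C12 of *Pdgfb* WT UUO (next 63.7 CPM). *Hspb8* was 6.98 CPM in A11 of the CL libraries labelled *Pdgfb* iKO (next 2.56 CPM), and *Hspe1* was 612 CPM in F6 of ABTAA CL (next 380 CPM).

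The UUO response differed between the genotypes of the *Pdgfb* arm for *Herpud1* by 0.83 and for *Hspe1* by 0.81 (log2, libraries labelled *Pdgfb* iKO minus *Pdgfb* WT). The form of the library name had a different log2 fold change in the *Veptp* and ABTAA arms for 25 members. As *Veptp* minus ABTAA, the difference was positive for *Dnajb9* (2.55), *Sdf2l1* (2.24), *Hyou1* (1.87), *Xbp1* (1.81), *Ern1* (1.18), *Pdia4* (0.90), *Creld2* (0.65), *Manf* (0.56), *Dnajb11* (0.44), and *Dnajc3* (0.31) among ER genes, and for *Hspb1* (2.61), *Hspb8* (1.76), *Bag3* (1.04), and *Dnajb1* (0.63) among heat shock genes. It was negative for *Hsp90b1* (-0.80), *Hspa5* (-0.64), *Ddit3* (-0.62), *P4hb* (-0.56), *Calr* (-0.44), and *Pdia6* (-0.30), and for *Hspe1* (-1.41), *Hspa8* (-1.14), *Hsp90aa1* (-1.04), *Hspd1* (-0.58), and *Hsp90ab1* (-0.53).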

How the results depend on the processing

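Of 610 values of the 97 named calls of members under the alternatives, 525 kept their direction and their side of the threshold, 80 lost the call, and 5 changed sign. The last were ER genes in the comparison of name forms in the *Veptp* arm without TMM, namely *Atf6* (0.10), *Hspa5* (0.22), *Edem1* (0.11), *Calr* (0.19), and *Pdia6* (0.21). With 1 library left out, 2403 of 2497 values kept the call. The number of members called between UUO and CL kidneys of ABTAA-treated mice was 5 with the exact test and 3 among plain names (23.6% and 11.6% of all genes). In *Veptp* WT mice it was 13 with the form of the name as a covariate, 4 among plain and 11 among split names, and 4 without the 8 libraries of numbers 3, 4, 7, and 8 (33.9%, 14%, 25.7%, and 7.39% of all genes). In *Veptp* iECKO mice it was 5 with no filter, 7 with the covariate, 0 among plain and 11 among split names, and 7 in 1 fit over all 12 groups (4.14%, 21.5%, 0%, 21.3%, and 14.7% of all genes). That fit gave 4 in *Pdgfb* WT mice, 2 in the libraries labelled *Pdgfb* iKO, 1 between *Pdgfb* genotypes in UUO kidneys, and 0 for the difference of responses (20.5%, 1.06%, 2.63%, and 0.18% of all genes). A mean count of 20 gave 2 in the libraries labelled *Pdgfb* iKO, and no TMM gave 9 between *Pdgfb* genotypes in UUO kidneys (7.86% and 27.9% of all genes). Some members called as reported were not tested in these settings, namely *Hspb1* and *Hspb8* in ABTAA-treated mice with the exact test, *Hspb8* there among plain names, *Trib3* and *Hspb8* in *Veptp* WT mice among plain names, *Trib3* in *Veptp* iECKO mice among plain names, *Trib3* in *Veptp* WT mice without the 8 libraries, and *Hspb8* and *Asns* in the libraries labelled *Pdgfb* iKO at a mean count of 20. The cause of the other shifts was not tested. With the replicate block the counts were 12 in IgG-treated and 10 in ABTAA-treated mice (37.1% and 27.8% of all genes). They were 14 in *Veptp* WT and 15 in *Veptp* iECKO mice among split names (23.2% and 26.6% of all genes), where the pairing was not taken as shown. The block on the ABTAA arm lost no call and added *Pdia6* in IgG-treated and *Xbp1* and *Ddit3* in ABTAA-treated mice. With 1 library left out, counts ran from 9 to 12 in IgG-treated, 7 to 11 in ABTAA-treated, 5 to 11 in *Veptp* WT, 2 to 6 in *Veptp* iECKO, and 10 to 13 in *Pdgfb* WT mice, and 3 to 4 in the libraries labelled *Pdgfb* iKO. They ran from 3 to 6 between *Pdgfb* genotypes in UUO kidneys, 2 to 4 for the difference of responses, 14 to 18 and 24 to 29 for name forms in the ABTAA and *Veptp* arms, and were 0 in the other comparisons. Depth limits the rare members most, since *Chac1* and *Hspa1b* passed the filter on low counts over all libraries of no arm.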
